A study of Mus musculus with 9 samples.

Results

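Prostaglandin synthesis and receptor genes were examined in cultured NPK cells, a mouse prostate cancer line. The genes were 10 by name: Ptgs1, Ptgs2, Ptges, Ptges2, Ptges3, Ptger1, Ptger2, Ptger4, Ptgis and Hpgd. Of these, 7 were among the 12842 genes of the deposited table, and Ptger2, Ptgis and Hpgd were not analysed here. The group was selected on the rise of Ptgs2 after silencing of Nsd2, so the values of these genes in silenced cells are given as a description with no test.

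NPK cells came from lung metastases of engineered mice, and all libraries share this background. Polyadenylated RNA was sequenced from 3 groups of 3 libraries. These were control cells, cells carrying a short hairpin RNA against the histone methyltransferase Nsd2 (shNsd2), and cells given a compound labelled MCTP. The titles number the compound 39, 40 and 41 in MCTP libraries 1, 2 and 3, and the study describes number 39 as a putative NSD2 inhibitor. Its dose and time in these cells were not found. A source label gives Nsd2 for shNsd2 library 1, Nsd3 for library 2 and Nsd4 for library 3, and the labels do not say what the control cells carried. The study's methods name an shRNA against luciferase as the control for silencing. Nothing in the labels says that libraries of a group came from separate cultures, so p-values measure only the spread between these libraries. Values are the deposited log2-scale values, and since no counts accompany them the depth of each library is unknown.

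Prostaglandins are short-lived lipid signals made from arachidonic acid, which phospholipases release from membranes. Cyclooxygenases, encoded by Ptgs1 and Ptgs2, convert it to an unstable endoperoxide, and terminal synthases turn that into prostaglandin E2 or its relatives. Ptgs1 is expressed constitutively in many tissues, whereas Ptgs2 is induced by cytokines, growth factors and stress, and prostaglandin E2 signals through the EP receptors of the Ptger genes.

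The silenced gene was measured first. Nsd2, listed in the table under its older symbol Whsc1, stood at 12.48, 12.43 and 12.42 in the control libraries, 12.15, 12.21 and 12.07 in the MCTP libraries and 11.56, 11.61 and 11.68 in the shNsd2 libraries. The groups did not overlap, and shNsd2 libraries were lowest. Back-transformed from the log2 scale, the level in shNsd2 cells was 0.563 ± 0.0247 of the control mean (SD, n = 3). With MCTP, Nsd2 fell by 0.30 on the log2 scale (SE 0.0537; lower in 3 of 3 libraries; limma with Benjamini-Hochberg adjustment, adjusted p = 0.00562), and after correction for GC content the difference was −0.091 and the call was lost (adjusted p = 0.214).

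MCTP library 2 stood apart from the others of its group. Its correlation across 11952 genes with the other MCTP libraries was 0.995 and 0.997, against 0.999 between those, and genes are not independent replicates. Its departure from the group followed the GC content of transcripts (Spearman rho across genes −0.744), with AT-rich transcripts higher. Control library 1 (rho −0.623) and shNsd2 library 3 (rho −0.684) departed along the same direction. Ptgs2 and Ptges3 transcripts are AT-rich, so their values are given below with and without these features.

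Ptgs2, the inducible cyclooxygenase, was 11.96, 11.99 and 12.02 in the control libraries. It was 12.93, 12.86 and 13.16 in the shNsd2 libraries. It was 12.99, 13.43 and 12.87 in the MCTP libraries. Every shNsd2 and MCTP library lay above every control library, and the ranges of shNsd2 and MCTP libraries overlapped. The highest value was in MCTP library 2 and the next in shNsd2 library 3, in both of which AT-rich transcripts were higher. Control library 1 departed in the same direction and had the lowest value of its group. The part of this departure in the Ptgs2 values of single libraries was not tested. The shNsd2 libraries stood 1.91, 1.83 and 2.25 times above the control mean, and MCTP libraries 1.99, 2.70 and 1.84 times.

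The log2 difference of Ptgs2 between shNsd2 and control cells, which selected the genes, was 0.99, and 1.03 after GC correction. Between MCTP and control cells it was 1.10 (95% confidence interval 0.80 to 1.40; SE 0.129; higher in 3 of 3 libraries; limma with Benjamini-Hochberg adjustment, adjusted p = 0.000943). The control libraries in that test are those that also served the selection, so the test is not independent of it. Without MCTP library 2 the difference was 0.94 (limma with Benjamini-Hochberg adjustment, adjusted p = 9.77e-07), and after GC correction it was 1.33. The mean in shNsd2 cells lay 0.11 below that in MCTP cells, less than the SD of either group (0.157 and 0.292), and 0.05 above it without MCTP library 2. After GC correction it lay 0.29 below.

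Ptgs1, the constitutive cyclooxygenase, was 12.79, 12.89 and 12.92 in control libraries, 12.85, 12.74 and 12.84 in MCTP libraries, and 12.85, 12.84 and 12.88 in shNsd2 libraries. All 3 groups overlapped. The log2 difference was −0.0083 in shNsd2 cells and −0.057 with MCTP (95% confidence interval −0.19 to 0.076; limma with Benjamini-Hochberg adjustment, adjusted p = 0.453). The interval with MCTP lies below the 0.80 at which that of Ptgs2 begins.

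Ptges encodes the microsomal prostaglandin E synthase that is often induced together with Ptgs2. It was 12.25, 12.33 and 12.36 in control libraries and 12.35, 12.34 and 12.27 in shNsd2 libraries. In MCTP libraries it was 12.67, 12.49 and 12.79. Only the MCTP libraries stood above the control range, while shNsd2 and control libraries overlapped. The log2 difference was 0.34 with MCTP (SE 0.0796; higher in 3 of 3 libraries; limma with Benjamini-Hochberg adjustment, adjusted p = 0.0159) and 0.0059 in shNsd2 cells. The MCTP call was lost without MCTP library 1 (limma with Benjamini-Hochberg adjustment, adjusted p = 0.0675), without control library 1 (adjusted p = 0.0601) or without control library 2 (adjusted p = 0.0541).

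Ptges2, a second membrane-associated prostaglandin E synthase, was 9.25, 9.37 and 9.35 in control libraries and 9.62, 9.59 and 9.46 in shNsd2 libraries. It was 9.59, 9.33 and 9.75 in MCTP libraries. The shNsd2 libraries all lay above the control range, and MCTP library 2 lay within it. The log2 difference was 0.23 in shNsd2 cells. It was also 0.23 with MCTP, where it did not pass (limma with Benjamini-Hochberg adjustment, adjusted p = 0.114). Without MCTP library 2 that difference was 0.35 (limma with Benjamini-Hochberg adjustment, adjusted p = 0.00137). Without MCTP library 3 it was 0.14, and after GC correction it was 0.15 (limma with Benjamini-Hochberg adjustment, adjusted p = 0.0979), neither past the threshold.

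Ptges3 encodes a cytosolic prostaglandin E synthase better known as the p23 co-chaperone of Hsp90. It was 12.80, 12.62 and 12.60 in control libraries and 12.17, 12.52 and 12.09 in MCTP libraries. It was 12.66, 12.67 and 12.83 in shNsd2 libraries. MCTP libraries were lowest and did not overlap the others, while shNsd2 and control libraries overlapped. Ptges3 fell by 0.41 on the log2 scale with MCTP (SE 0.114; lower in 3 of 3 libraries; limma with Benjamini-Hochberg adjustment, adjusted p = 0.0275), and its difference in shNsd2 cells was 0.047. After GC correction the shNsd2 difference was 0.11. The MCTP difference was −0.54 without MCTP library 2 and −0.24 after GC correction, both past the threshold. The call was lost without MCTP library 1 (limma with Benjamini-Hochberg adjustment, adjusted p = 0.109), MCTP library 3 (adjusted p = 0.0712), or control library 1 (adjusted p = 0.0922), 2 (adjusted p = 0.0661) or 3 (adjusted p = 0.0568).

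Of the receptors, Ptger1 and Ptger4 were listed, both at low values where this scale compresses differences. Ptger1, the EP1 receptor that raises intracellular calcium, was 6.19, 6.15 and 6.20 in control libraries, 6.51, 6.48 and 6.44 in MCTP libraries and 6.05, 6.07 and 6.16 in shNsd2 libraries. MCTP libraries were highest with no overlap, and shNsd2 and control libraries overlapped. Ptger1 rose by 0.30 on the log2 scale with MCTP (SE 0.0411; higher in 3 of 3 libraries; limma with Benjamini-Hochberg adjustment, adjusted p = 0.00202), and its difference in shNsd2 cells was −0.088. After GC correction these were 0.19 (limma with Benjamini-Hochberg adjustment, adjusted p = 0.0306) and −0.16. Nothing states that strand was used in counting, so the assignment of reads to this gene is uncertain.

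Ptger4, the EP4 receptor that raises cyclic AMP, was 5.77, 5.65 and 5.73 in control libraries. It was 5.89, 5.99 and 5.79 in MCTP libraries and 5.53, 5.58 and 5.66 in shNsd2 libraries. MCTP libraries were highest with no overlap, and shNsd2 libraries overlapped the control range by library 3. The log2 difference with MCTP was 0.18 (SE 0.058; higher in 3 of 3 libraries; limma with Benjamini-Hochberg adjustment, adjusted p = 0.0478), and in shNsd2 cells it was −0.13. That call was lost without any 1 of MCTP libraries 1 and 2 and control libraries 1, 2 and 3 (limma with Benjamini-Hochberg adjustment, adjusted p from 0.0538 to 0.151) and after GC correction (adjusted p = 0.111), quantile normalization (0.0595), a replicate block (0.0708) or a fit with no trend (0.066). Ptger4 overlaps Ttc33 on the opposite strand by 11676 bases, with the same limit on assigning reads.

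**Figure D1:**
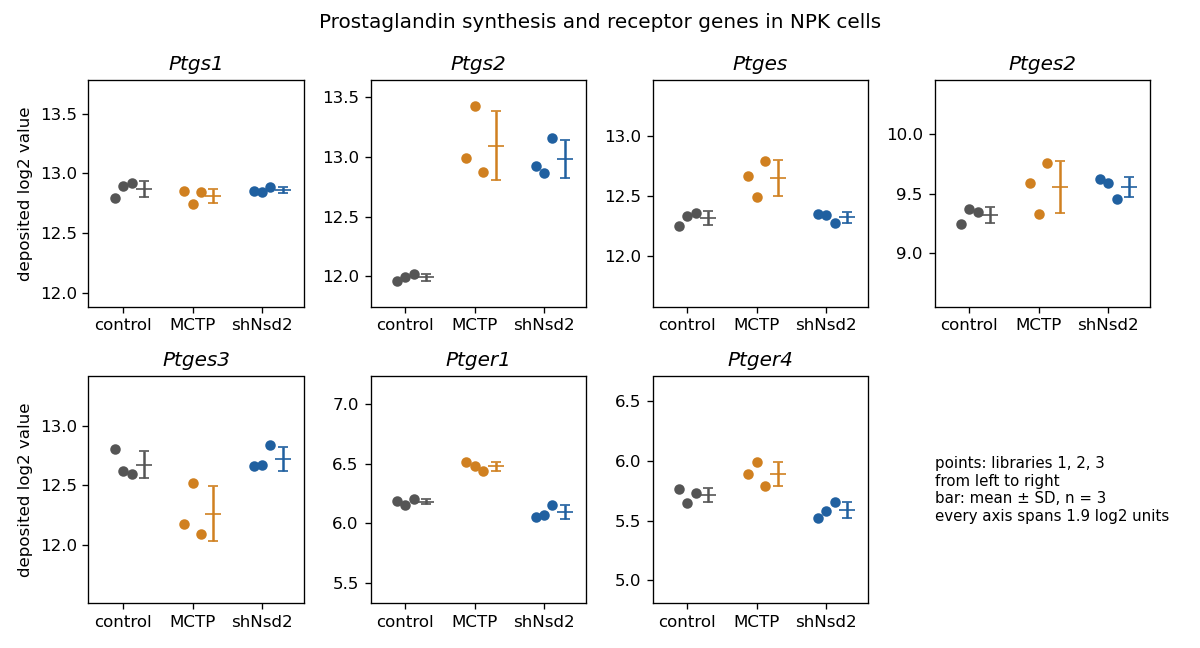
Deposited log2 values of 7 prostaglandin synthesis and receptor genes (vertical axes, each spanning the same number of log2 units) in control, MCTP and shNsd2 libraries. Points are single libraries and bars are the mean ± SD (n = 3); Ptgs2 lies between 11.96 and 12.02 in control libraries and between 12.86 and 13.43 in all others.

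All 7 listed genes passed the filter on low values. In MCTP against control cells, 4 of the 7 were called higher (Ptgs2, Ptges, Ptger1 and Ptger4), where 18% of all 12216 genes tested were. In the same comparison 1 of the 7, Ptges3, was called lower, where 17.2% of all genes were. With so few genes, chosen by name around Ptgs2, these shares are a description. Calls of these genes in the comparisons that involve shNsd2 cells are not counted, since the values of those cells selected the group.

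Levels of different genes can be set side by side only per length of transcript, here as the deposited log2 value minus log2 of the length in kilobases of the longest coding transcript. On that scale, control cells ranked Ptges3 (11.67), Ptgs1 (11.35), Ptges (10.45), Ptgs2 (9.84) and Ptges2 (7.01) above Ptger4 (3.99) and Ptger1 (3.95). The receptors did not differ beyond the spread between libraries. In shNsd2 cells Ptgs2 stood at 10.83 on this scale and Ptges at 10.45, the reverse of their order in control cells. That order is a description, since the Ptgs2 values of shNsd2 cells selected the genes. It may also depend on the transcript length used, and other transcripts were not tried. In MCTP cells the levels were 10.94 for Ptgs2 and 10.79 for Ptges, within the spread of Ptgs2 (SD 0.292), and those of Ptgs1 (11.29) and Ptges3 (11.26) differed by less than the spread too.

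The members also differ in sequence. The Ptgs2 transcript (4453 bases) is 40.02% GC, lower than all but 4.91% of genes tested, and Ptges3 is 43.25% GC, against a median of 50.2%. AU-rich elements, built around the pentamer ATTTA, are known to shorten the life of the Ptgs2 mRNA. The pentamer occurs 15 times in the Ptgs2 transcript, or 3.37 per kilobase, more than in 98.2% of genes tested, and 6 times in the 2000 bases of Ptges3, denser than in 96.7%. The median gene had 0.803 per kilobase, Ptgs1 had 1.05, and Ptges and Ptger1 had 0. Across genes, the log2 difference with MCTP followed GC content (Spearman rho 0.476), as did that of shNsd2 cells (rho 0.255), GC-rich transcripts being higher. Ptgs2, an AT-rich transcript, was higher in both comparisons. After GC correction its log2 difference was 1.03 in shNsd2 cells and 1.33 with MCTP. Any part of GC content beyond that correction was not tested.

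RefSeq promoter windows were matched for 8 of the 10 genes (build GRCm38.p6; 250 bases before and 50 after each annotated start). Both strands were searched for CGTCA (the core of cyclic AMP response elements), CACGTG (an E-box), TATAAA (the TATA box), CCAAT (the CCAAT box) and the NF-kB consensus. In Ptgs2, on the plus strand of chromosome 1, the 250 bases before the start held none of them. The search was then widened, after that result was seen, to the 50 bases after the start, which held CGTCA at chr1:150100044-150100048 and CACGTG at chr1:150100047-150100052, sharing 2 bases. These matches lie inside the first exon as annotated. They are printed because Ptgs2 moved in both comparisons, with matches in capitals, at chr1:150100031-150100060:
Ptgs2: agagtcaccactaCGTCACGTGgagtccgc
Over windows of 300 bases, 21.0% of 27025 promoters held CGTCA and 7.24% held CACGTG. No motif of the 5 was found in the windows of Ptgs1 and Ptges. CGTCA and the NF-kB consensus each occurred once in the window of Ptges3, CACGTG once in that of Ptges2, CCAAT once in those of Ptger2 and Ptger4, and TATAAA once in that of Hpgd. Of all windows, 8.18% held the NF-kB consensus, 37.9% held CCAAT and 14.2% held TATAAA. A match is a description of letters and not evidence of binding, and no binding was measured.

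The genes most like Ptgs2 were ranked by Pearson's r over the 9 libraries, among 6114 genes of above-median level. The points are 3 libraries of each of 3 groups and not 9 independent samples, and no p is given. The highest r belonged to Tcp11l1 (0.97), Slc35e3 (0.97), Abcc4 (0.94), the ubiquitin ligase Ube4a (0.94) and the nucleotide hydrolase Samhd1 (0.93). Among the lowest were the cargo receptor Tmed10 (−0.98), the lipid-sensing nuclear receptor Pparg (−0.97), the phosphatase Ptpn6 (−0.96) and Rnf157 (−0.96). Pparg was 11.59, 11.65 and 11.59 in control libraries, 11.17, 11.10 and 11.19 in MCTP libraries and 11.25, 11.23 and 11.25 in shNsd2 libraries, with no overlap between control and the others. Among the other prostaglandin genes r with Ptgs2 ran from −0.43 (Ptgs1) to 0.46 (Ptges2).

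Related genes were taken from 9 lists of 156 genes in all, of which 113 were in the table. In shNsd2 against control cells, 22 of 110 tested rose and 37 fell, where 23.1% of all genes rose and 24.8% fell, with a median log2 difference of −0.026 against 0.0020 over all genes. In MCTP against control cells, 22 of 111 rose and 27 fell, where 18% and 17.2% of all genes did. Without MCTP library 2 the counts were 31 and 36, and those over all 12216 genes were 3641 and 3743. In shNsd2 against MCTP cells, 29 of 111 were higher and 33 lower, beside 20.6% and 22.6% of all genes. Counts of single lists below are a description to be set beside these shares, and no list was tested as a set. The shNsd2 and MCTP comparisons share their control libraries. Genes named from these lists as rising or falling kept that call under the alternatives in which they were tested, unless a lost call is given. The stricter filter (above 7.48) did not test Akap12, Fosb, Dusp1 or Alox5, and markers were not put through the alternatives.

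Release of arachidonate and its return to membranes was represented by 17 tested genes. In shNsd2 cells 3 rose and 7 fell, and with MCTP 2 rose and 4 fell. Acsl4, which couples arachidonate to coenzyme A for re-esterification, fell by 0.84 in shNsd2 cells on the log2 scale (SE 0.101; limma with Benjamini-Hochberg adjustment, adjusted p = 0.000225). With MCTP it fell by 0.69, a call lost without MCTP library 1 (limma with Benjamini-Hochberg adjustment, adjusted p = 0.0958) or 3 (adjusted p = 0.0552) and without control library 1 (adjusted p = 0.0797) or 2 (adjusted p = 0.0629). Its relative Acsl3 fell by 0.56 in shNsd2 cells and by 0.49 with MCTP. Pla2g7, the secreted hydrolase of platelet-activating factor, fell by 0.61 and by 0.38. Pla2g4a, the cytosolic phospholipase that releases arachidonate, passed in neither comparison (log2 differences 0.079 and −0.19).

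Transport and breakdown had 6 genes, all tested. In shNsd2 cells 1 rose and 4 fell, and with MCTP 2 rose and 1 fell. Abcc4, an exporter of prostaglandin E2, was 10.89, 10.91 and 10.92 in control libraries, 11.52, 11.52 and 11.56 in MCTP libraries, and 11.52, 11.54 and 11.56 in shNsd2 libraries. Both groups stood apart from control and overlapped each other. It rose by 0.64 in shNsd2 cells (SE 0.032; limma with Benjamini-Hochberg adjustment, adjusted p = 2.42e-06) and by 0.63 with MCTP (SE 0.0446; adjusted p = 0.000107). Slco2a1, the prostaglandin uptake carrier, fell by 0.39 in shNsd2 cells and had a log2 difference of −0.070 with MCTP, which did not pass. Ptgr1, a reductase that inactivates prostaglandins and leukotriene B4, fell by 0.26 in shNsd2 cells and rose by 0.34 with MCTP, and the direct difference of shNsd2 from MCTP cells was −0.60 (limma with Benjamini-Hochberg adjustment, adjusted p = 0.00019).

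In the lipoxygenase, leukotriene and epoxide route, 5 genes were tested in both comparisons, of which 1 rose and 2 fell in shNsd2 cells and 3 rose with MCTP. Ephx1, the microsomal epoxide hydrolase, rose by 1.51 with MCTP (SE 0.0915; limma with Benjamini-Hochberg adjustment, adjusted p = 6.28e-05). In shNsd2 cells it rose by 0.17, a call lost when all 9 libraries were fitted together (limma with Benjamini-Hochberg adjustment, adjusted p = 0.133). Ltc4s, leukotriene C4 synthase, rose by 0.70 with MCTP, and its log2 difference in shNsd2 cells was 0.044. Alox5, which starts leukotriene synthesis, lay at the floor of the scale (means 3.79, 4.04 and 3.76 in control, MCTP and shNsd2 cells, floor 3.78). It passed the filter with MCTP through its values in MCTP libraries and was not tested in shNsd2 cells, so its calls against control and shNsd2 cells, part of the 22 and the 33 above, rest on the filter. Of other prostanoid synthases, 2 of 3, Akr1b3 and Cbr1, were called higher in each comparison. Both shNsd2 calls were lost when all 9 libraries were fitted together (limma with Benjamini-Hochberg adjustment, adjusted p = 0.0796 and 0.0996). That of Cbr1 was also lost with the replicate block and without control library 1, 2 or 3 or shNsd2 library 1 or 2. With MCTP, the Akr1b3 call was lost without MCTP library 1 or any 1 control library, and that of Cbr1 without control library 2. Of other receptors only Ptgfrn, a protein that associates with the prostaglandin F receptor, was listed. It fell by 0.19 in shNsd2 cells.

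**Figure D2:**
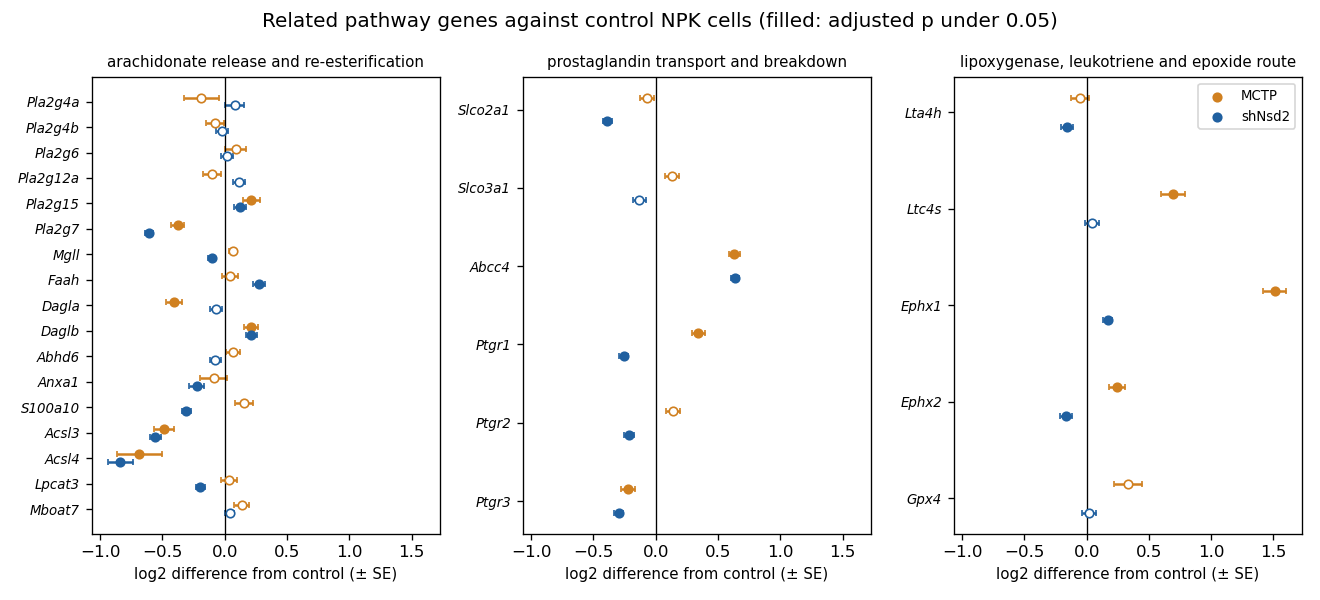
Log2 differences from control (horizontal axes, ± SE, n = 3 libraries a group) of genes tested in both comparisons on 3 related lists, for MCTP and shNsd2 cells; filled points passed the adjusted threshold. Abcc4 lies at 0.63 and 0.64, and Ephx1 at 1.51 with MCTP and 0.17 in shNsd2 cells.

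The cyclic AMP pathway below EP2 and EP4 had 22 genes tested. In shNsd2 cells 3 rose and 8 fell, and with MCTP 2 rose and 6 fell. Adcy7, an adenylyl cyclase, fell by 0.61 in shNsd2 cells (limma with Benjamini-Hochberg adjustment, adjusted p = 1.31e-05), as did Prkar2b, a regulatory subunit of protein kinase A. With MCTP, Adcy7 fell by 0.28 (limma with Benjamini-Hochberg adjustment, adjusted p = 0.0229), a call not put through the alternatives. Prkar2b fell by 0.41 with MCTP, a call lost without MCTP library 1 (limma with Benjamini-Hochberg adjustment, adjusted p = 0.0728), control library 1 (adjusted p = 0.0582) or control library 2 (adjusted p = 0.0538). Akap12, a scaffold of that kinase, rose by 0.90 with MCTP and by 0.16 in shNsd2 cells. Pde4b, a phosphodiesterase that degrades cyclic AMP, rose by 0.51 with MCTP and did not pass in shNsd2 cells (0.063).

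Among 23 tested transcription regulators known to act on Ptgs2, 7 rose and 5 fell in shNsd2 cells, and 6 rose and 5 fell with MCTP. Cebpa was 8.70, 8.77 and 8.77 in control libraries, 9.51, 9.27 and 9.59 in MCTP libraries and 8.11, 8.06 and 8.04 in shNsd2 libraries. The groups did not overlap, with MCTP libraries above and shNsd2 libraries below control. The direct difference of shNsd2 from MCTP cells was −1.39 (SE 0.0845; limma with Benjamini-Hochberg adjustment, adjusted p = 4.31e-05). Fosb, an AP-1 subunit, rose by 0.51 in shNsd2 cells, where its relative Fosl2 fell by 0.13 (limma with Benjamini-Hochberg adjustment, adjusted p = 0.0468), a call not put through the alternatives. With MCTP, Fosl2 rose by 0.41 and Fosb did not pass (0.039). Nfkb1 fell by 0.25 in shNsd2 cells and by 0.28 with MCTP.

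Proteins that bind the Ptgs2 mRNA or degrade such mRNAs had 14 genes tested, of which 5 fell and none rose in shNsd2 cells (24.8% and 23.1% of all genes), while 7 fell and 1 rose with MCTP (17.2% and 18% of all genes). Of the 7, 6 have transcripts below the median GC content of 50.2%, AT-rich transcripts being lower with MCTP in general, and the part of GC content in this count was not tested. The call of Zfp36, the 1 that rose, was lost without any 1 of MCTP libraries 1 and 3 and control libraries 1, 2 and 3 (limma with Benjamini-Hochberg adjustment, adjusted p from 0.051 to 0.0919), and that of Xrn1, an exonuclease among the 7, without any 1 of MCTP libraries 1 and 3 and control libraries 1 and 2 (adjusted p from 0.0508 to 0.0883). Hnrnpd, which binds AU-rich elements, fell by 0.17 in shNsd2 cells and by 0.54 with MCTP (SE 0.057; limma with Benjamini-Hochberg adjustment, adjusted p = 0.000644). Zfp36l2, a decay factor of the tristetraprolin family, fell by 0.48 with MCTP and by 0.12 in shNsd2 cells, the latter call not put through the alternatives.

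Of 19 tested inducible inflammatory genes, often expressed alongside Ptgs2, 5 rose and 5 fell in shNsd2 cells, where 23.1% and 24.8% of all genes did. With MCTP 3 rose and 4 fell, where 18% and 17.2% did. Il1rn, the interleukin-1 receptor antagonist, fell by 0.80 in shNsd2 cells (limma with Benjamini-Hochberg adjustment, adjusted p = 2.66e-06) and by 0.41 with MCTP. Vcam1, an adhesion molecule, fell by 0.73 in shNsd2 cells and by 0.33 with MCTP, the latter call being lost after GC correction (limma with Benjamini-Hochberg adjustment, adjusted p = 0.0676). Dusp1, an inducible phosphatase of MAP kinases, rose by 0.19 and by 0.46, and the adhesion molecule Icam1 by 0.20 and by 0.45.

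Markers of the labelled epithelial cells were present for 7 of 9 genes, with Krt8 most abundant. Their summed log2 level was 17.53, 17.71 and 17.66 in control libraries, 17.91, 17.68 and 18.04 in MCTP libraries, and 17.50, 17.44 and 17.33 in shNsd2 libraries. That sum is set mostly by Krt8, Krt19 and Krt18. Of 6 epithelial markers tested, 1 rose and 4 fell in shNsd2 cells (median log2 difference −0.20), and 3 rose and 1 fell with MCTP (median 0.29). Epcam was low throughout (3.55 on average in control cells), and of prostate luminal markers 4 of 7 were in the table, with Pbsn and Msmb among those not analysed here. The summed luminal level, with Fkbp5 most abundant, was 12.81 to 12.82 in control, 12.65 to 12.71 in MCTP and 12.68 to 12.70 in shNsd2 libraries, a sum set mostly by Fkbp5. Of the 4 genes, 1 rose and 1 fell with MCTP (median log2 difference 0.026), and 3 fell in shNsd2 cells (median −0.15). Leukocyte markers, relevant since macrophages express Ptgs2, were listed for 2 of 11 genes, and Ptprc, Adgre1 and Csf1r were not analysed here. Their summed level was 10.38, 10.51 and 10.52 in control libraries, 10.57, 10.44 and 10.61 in MCTP libraries and 10.61, 10.59 and 10.59 in shNsd2 libraries, with Cd14 most abundant. Cd68 rose by 0.73 with MCTP and by 0.23 in shNsd2 cells. Fibroblast markers were listed for 4 of 9 genes (Col3a1 most abundant; summed level 10.92 to 11.12 in control, 10.81 to 10.96 in MCTP and 10.75 to 10.76 in shNsd2 libraries), endothelial markers for 3 of 8 (Flt1 most abundant; 8.37 to 8.47, 8.47 to 8.54 and 8.41 to 8.43), and mast cell markers for 0 of 6. Of 3 fibroblast markers tested, 1 rose and 2 fell in shNsd2 cells, and 1 fell with MCTP. Of 2 endothelial markers tested, 1 rose with MCTP and none passed in shNsd2 cells. The part of these markers in the values of Ptgs2 was not tested, and fewer cells of a type cannot be told apart from less RNA per cell.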

How the data were processed

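Values were deposited by the authors as a table of log2-scale values for 12842 genes, scaled between libraries and variance-stabilized. The header does not name the transform, and the study states normalization by DESeq2 of the authors for tumour profiles. The submitters' notes list mm9 as the build and, without roles, bcl2fastq 1.8.4, TopHat, Cufflinks, DESeq and DESeq2. Of the value columns, 9 were used and 3 matching no sample were not. Genes above 3.78 (the median of the lowest 10% of values) in at least 3 of 6 libraries were tested with limma 3.58.1 (lmFit, eBayes with trend, R 4.3.3), with p-values adjusted by Benjamini-Hochberg across every gene tested, at 0.05. Lengths, GC content and positions are from GENCODE and RefSeq on GRCm38, matched by identifier for 97.4% of genes. Genes of related lists put through the alternatives were up to 4 called per list, comparison and direction, by size. Not all of these are named, and called genes named outside them are marked as not put through the alternatives. The script was tested on simulated data. The members and lists were chosen with earlier results of these data known.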

Additional observations from a re-analysis of the deposited data

How the results depend on the processing

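Ptgs2 kept its direction under every alternative (no filter, a stricter filter, 1 fit of all 9 libraries, quantile normalization, median centring, no trend, GC correction, the replicate block and each library left out), from 0.90 to 1.05 in shNsd2 and from 0.94 to 1.33 in MCTP cells against control. The shNsd2 range re-fits the values that selected the genes, so it is a description and not support for the rise. Genes called in MCTP against control numbered 4305, and from 2046 to 7384 with 1 library left out, 7384 being without MCTP library 2. Of those calls 51.1% were higher, and 64.4% after median centring. For shNsd2 against MCTP the calls were 5276 and from 3391 to 7781. Related genes called with MCTP were 49, and from 28 to 67. Members called with MCTP were 5, from 2 to 5 with 1 library left out, and 3 with the stricter filter, which tests neither receptor.

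Libraries of the same number do not pair: the correlation of their departures from group means was −0.49, 0.25 and −0.51 for shNsd2 and control and −0.60, −0.57 and 0.61 for MCTP and control. With the replicate block, genes called were 4515, 3399 and 3794 in shNsd2 against control, MCTP against control and shNsd2 against MCTP, and members called with MCTP were 4.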
